A study of Mus musculus with 354 samples.

Results

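*Rbp7*, which encodes a cellular retinol-binding protein, was examined with 8 other genes that carry, take up, oxidize or sense retinoids: *Rbp4*, *Crabp1*, *Crabp2*, *Stra6*, *Aldh1a1*, *Aldh1a2*, *Aldh1a3* and *Rarb*. These 9 genes were taken by name from the 55367 genes counted in each cell. The genes were selected on earlier results of these data, in which the measured level of *Rbp7* was higher in CA-ERBB2 cells, so its difference between genotypes is given as a description without a test. Single GFP+ cells had been sorted from cochleae of pups at postnatal day 3. The CA-ERBB2 cells came from mice carrying TetON-CAERBB2 together with Fgfr3-iCre and the allele ROSA-floxed-rtTA/GFP, in which Cre recombination switches on GFP and the doxycycline-dependent activator, which then drives a constitutively active form of ERBB2. The Control cells came from littermates that carried the ROSA-floxed-rtTA/GFP and Fgfr3-iCre alleles but lacked the ERBB2 transgene. The protocol gives tamoxifen at 75 mg/kg on postnatal days 0 and 1 and doxycycline at 100 mg/kg on day 2 for the series, and a treatment tag is set for the CA-ERBB2 samples only. Fgfr3-iCre recombines in several types of supporting cells (SCs) and in outer hair cells, and cells of several pups were pooled for a sort, so neither genotype represents 1 cell type or 1 animal.

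Each genotype comprised 3 plates of 59 cells. The plate number in the sample names was taken as the replicate, and nothing in the labels ties a plate to separate animals, so p-values measure the spread between these plates, which may be technical. Cells held between 1443 and 5178221 counts, with a median of 2866362, and 2 CA-ERBB2 and 33 Control cells had fewer than 100000 counts. The transgene was checked through *Erbb2*, which was at 46.0 to 120 CPM on the CA-ERBB2 plates and 3.24 to 19.8 CPM on the Control plates. The 24 wells A12 to D12, 12 per genotype, stood apart with a median of 15673 genes detected in CA-ERBB2 wells and 15538 in Control wells, against 3269 and 3233 in the other wells. A median of 5.5 of the 9 retinoid genes was detected in those CA-ERBB2 wells and 5.0 in those Control wells, against 1.0 in the other wells of either genotype.

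Retinol circulates bound to RBP4, enters cells through the membrane receptor STRA6 and is held in the cytoplasm by cellular retinol-binding proteins such as RBP7. Dehydrogenases oxidize it to retinal, and the enzymes ALDH1A1, ALDH1A2 and ALDH1A3 oxidize retinal to retinoic acid. CRABP1 and CRABP2 bind retinoic acid in the cytoplasm, and the receptors RARA, RARB and RARG act on genes together with the RXR receptors. *Rarb* is itself a classical gene induced by retinoic acid, and retinoic acid is known to pattern the developing inner ear. *Rbp7* is best known from adipose tissue and its endothelium, where it is induced by the nuclear receptor PPARG.

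*Rbp7* lies on the minus strand of GRCm38 at chr4:149449687-149454978 and has an exonic length of 718 bases. *Rarb* lies on the minus strand at chr14:16430839-16819156. The 250 bases before the start of both genes are shown because *Rbp7* is the gene on which the results turn and *Rarb* is the member whose promoter holds the best known retinoic acid response element. The sequences are from RefSeq on GRCm38.p6, 5′ to 3′ on the strand of the gene, with matches to the searched motifs in capitals. The *Rarb* window does not precede the outer end of the gene but a start that RefSeq places within the span given above.
Rbp7 (chr4:149454969-149455218): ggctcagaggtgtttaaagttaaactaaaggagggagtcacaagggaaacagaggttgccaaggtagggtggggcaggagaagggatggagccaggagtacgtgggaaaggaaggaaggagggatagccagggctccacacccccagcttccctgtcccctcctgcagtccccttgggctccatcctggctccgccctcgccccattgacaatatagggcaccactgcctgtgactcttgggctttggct
Rarb (chr14:16575477-16575726): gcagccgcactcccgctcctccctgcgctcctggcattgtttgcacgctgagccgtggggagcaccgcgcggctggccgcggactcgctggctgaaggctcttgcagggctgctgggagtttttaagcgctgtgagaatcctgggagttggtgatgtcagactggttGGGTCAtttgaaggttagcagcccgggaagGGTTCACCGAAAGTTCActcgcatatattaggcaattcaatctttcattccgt
The motifs were the half-site AGGTCA, its variants with the letters AGTTCA or with GGTTCA or with GGGTCA, direct repeats of any of these with a spacer of 1, 2 or 5 bases, and the AP-1 motif TGANTCA, all on both strands, so a repeat also counts as its half-sites. The *Rarb* window held 1 direct repeat with a spacer of 5 bases at positions 53 to 37 before the start and 1 further half-site, GGGTCA, at positions 83 to 78. Such a repeat was found in 29 (0.0883%) of 32841 promoter windows of mouse genes. The *Rbp7* window held no match to any of them. The half-site GGGTCA alone was found in 11.6% of the windows, AGTTCA in 11.8% and GGTTCA in 8.84%. Windows for *Crabp2* and *Aldh1a3* were not used here.

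*Rbp7* was far higher on the CA-ERBB2 plates. Its level was 95.2, 417 and 1486 CPM (counts per 1000000 counts of the plate sum, scaled by TMM factors) on CA-ERBB2 plates 1, 2 and 3, and 4.64, 2.61 and 7.66 CPM on Control plates 1, 2 and 3. All 3 CA-ERBB2 plates lay above all 3 Control plates, an order found for 4.20% of the 21416 genes tested, and the CA-ERBB2 plates differed widely among themselves. The means were 666 ± 728 CPM (SD, n = 3 plates) and 4.97 ± 2.54 CPM (SD, n = 3 plates), a ratio of 134, and the fitted log2 fold change was 7.07. It was 5.71 without CA-ERBB2 plate 3 and 7.15 without wells A12 to D12. CA-ERBB2 plate 1 had the lowest of the 3 CA-ERBB2 levels but held the most cells with any *Rbp7* count. In a plate sum, more cells with *Rbp7* cannot be told apart from more *Rbp7* per cell, and the cells were therefore examined one by one.

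The level of a plate was set by few cells. At least 1 *Rbp7* count was found in 15, 5 and 6 cells of CA-ERBB2 plates 1, 2 and 3 and in 8, 4 and 4 cells of Control plates 1, 2 and 3. This was 14.7% of CA-ERBB2 cells (26 cells, 95% exact binomial interval 9.83 to 20.8%) and 9.04% of Control cells (16 cells, interval 5.26 to 14.3%). With each cell thinned to 100000 counts and shallower cells left out, *Rbp7* was detected in 9.14% of CA-ERBB2 cells (16 of 175) and 8.33% of Control cells (12 of 144). At matched depth the shares with a count thus lay close together, and it was the level reached within a cell that set the plates apart. Intervals cover counting error only, over cells pooled from 3 plates, and leave out the spread between plates. Before thinning, the share with a count was 25.4%, 8.47% and 10.2% on CA-ERBB2 plates 1, 2 and 3. Amplified reads are also not independent molecules.

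*Rbp7* reached 100 CPM, hereafter Rbp7-high, in 4, 2 and 4 cells of the 3 CA-ERBB2 plates and in 1, 0 and 1 cells of the 3 Control plates. These were 5.65% of CA-ERBB2 cells (interval 2.74 to 10.1%) and 1.13% of Control cells (interval 0.137 to 4.02%), or 4.85% and 1.21% without wells A12 to D12. A level of 1000 CPM or more was found in 6 CA-ERBB2 cells, 2 on each plate, and in no Control cell, where a count of 0 among all Control cells leaves room for a share of at most 1.69%, by the limit of 3 counts in place of an interval. The 10 Rbp7-high cells held 99.6% of the 203404 *Rbp7* counts of CA-ERBB2 cells, and 2 of them, both on plate 3, held 65.1%. Of the 2340 *Rbp7* counts of Control cells, 52.2% lay in the 2 cells at 100 CPM or more.

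**Figure D1:**
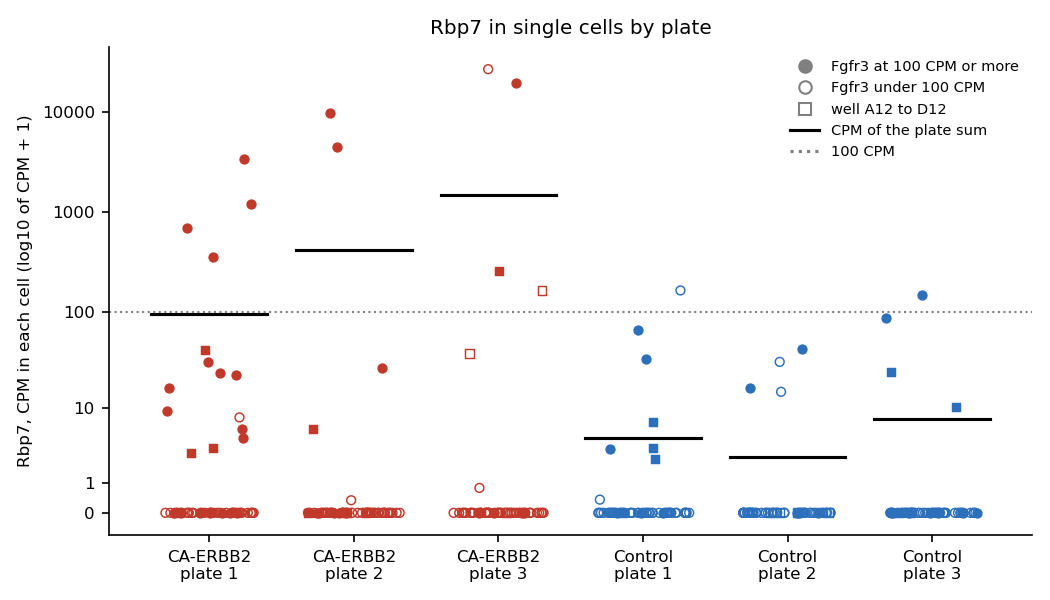
Level of *Rbp7* in each cell by plate, in CPM of the cell on a log10 scale after adding 1, with filled symbols for cells with *Fgfr3* at 100 CPM or more, squares for wells A12 to D12, and black lines for the CPM of the plate sum. Between 2 and 4 cells lie above 100 CPM on each CA-ERBB2 plate, up to 26643 CPM, while the highest Control cell is at 164 CPM.

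The highest level was found in well D4 of CA-ERBB2 plate 3, with 72580 *Rbp7* counts of 2724146 in all, or 26643 CPM. The cell in B6 of the same plate reached 19485 CPM. On plate 2 the cells B8 and C4 were at 9796 and 4490 CPM. On plate 1 the cells E9, A1, D5 and A9 were at 3358, 1209, 695 and 357 CPM, so of these 8 cells those with most *Rbp7* were on plate 3 and those with least on plate 1. The remaining cells, C12 and B12 of plate 3, were at 258 and 165 CPM and belonged to the wells that stood apart. In Control cells the highest levels were 164 CPM in A4 of plate 1 and 148 CPM in B1 of plate 3, close to the lowest of the 10 CA-ERBB2 cells. The next CA-ERBB2 cell, under the threshold, was D12 of plate 1 at 40.6 CPM.

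The 8 Rbp7-high CA-ERBB2 cells outside wells A12 to D12 carried markers of SCs. The summed level of 10 SC markers ranged from 7221 to 12810 CPM in these 8 cells, against a median of 290 CPM in the CA-ERBB2 cells below 100 CPM of *Rbp7* and 309 CPM in Control cells. *S100a1*, which encodes a calcium-binding protein of Deiters' and pillar cells, was between 1503 and 11203 CPM in the 8 cells. *Fgfr3*, the gene whose regulatory sequence drives the Cre, was between 896 and 1374 CPM in 7 of them and at 0 in the cell with the most *Rbp7*, in which 1878 genes were detected. From 6 to 9 of the 10 SC markers reached 100 CPM in those 7 cells, and 2 did in the cell with the most *Rbp7*.

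Markers of the tissues from which *Rbp7* is best known were low in the 8 cells. The summed level of 6 endothelial markers was at most 26.0 CPM with a median of 0, and that of 5 adipocyte markers was at most 7.67 CPM with a median of 0. Over all 10 Rbp7-high cells, *Adipoq*, *Plin1*, *Fabp4* and *Pparg* had no count, and neither had the endothelial genes *Cdh5* and *Tek* or the macrophage genes *Ptprc* and *Adgre1*. The other 1 adipocyte, 4 endothelial and 5 macrophage markers each had a count in some of the 10 cells. The macrophage marker *Csf1r* was detected in 6 of them. The endothelial marker *Emcn* was detected in 3, at up to 1889 CPM, and the endothelial sum reached 1970 CPM over the 10. The summed level of 7 macrophage markers was at most 62.5 CPM in the 8 cells, and that of 6 mesenchymal markers was at most 88.9 CPM. Some other marker lists reached higher values than these in some of the 8 cells. Interdental cell markers had a median of 195 CPM and a highest value of 1532 CPM, against a median of 343 CPM in the other CA-ERBB2 cells. Markers of the medial greater epithelial ridge had a median of 40.1 CPM and a highest value of 1277 CPM, against a median of 200.1 CPM. Markers of *Oc90* cells had a median of 156 CPM against 15.7 CPM, and melanocyte markers 39.7 CPM against 0, and their part in the results was not tested. *Oc90* itself was at most 22.4 CPM in the 10 Rbp7-high cells.

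The cells C12 and B12 of plate 3 differed from the other 8. They held *Spp1*, which encodes osteopontin, at 74736 and 19034 CPM, *Timp1*, which encodes an inhibitor of metalloproteinases, at 10755 and 5053 CPM, and the collagen gene *Col3a1* at 330 and 895 CPM. In the 8 others, *Spp1* was at most 83.9 CPM and *Col3a1* at most 5.87 CPM. Of the 36 CA-ERBB2 cells in which *Spp1*, *Timp1*, *Mmp9* and *Dmp1* were each at 100 CPM or more, *Rbp7* was detected in 5 and reached 100 CPM in 2, which were these cells. The 2 Control cells at 100 CPM were unlike each other. B1 of plate 3 had *Fgfr3* at 1092 CPM and 9 of the 10 SC markers at 100 CPM, and A4 of plate 1 had *Fgfr3* at 0, none of the 10 at 100 CPM and *Col3a1* at 8114 CPM.

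**Figure D2:**
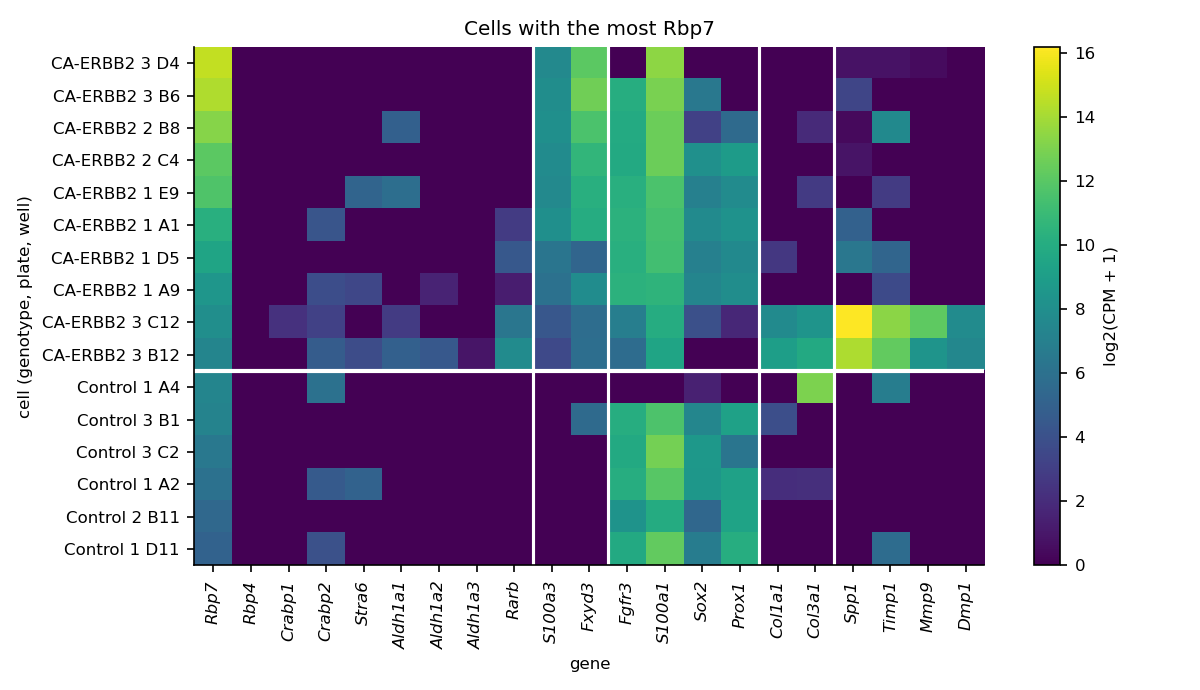
Levels of 21 genes, as log2(CPM + 1), in the 10 CA-ERBB2 cells with *Rbp7* at 100 CPM or more and, below the white line, the 6 Control cells with most *Rbp7*, with cells as rows (genotype, plate, well) and the 9 retinoid genes, genes alike to *Rbp7*, SC markers, collagens and osteopontin network genes as columns. In the upper 8 rows the columns of the other 8 retinoid genes stay at or below 56.7 CPM while *S100a3*, *Fxyd3* and *S100a1* are filled.

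Cells were then divided by *Fgfr3*, at a level of 100 CPM chosen after the data had been seen. *Fgfr3* was at or above it in 38 CA-ERBB2 cells (22, 10 and 6 on plates 1, 2 and 3) and in 27 Control cells (10, 5 and 12). *Rbp7* was detected in 20 of the 38 CA-ERBB2 cells (52.6%, interval 35.8 to 69.0%) and in 12 of the 27 Control cells (44.4%, interval 25.5 to 64.7%). In the cells with *Fgfr3* below 100 CPM it was detected in 4.32% of CA-ERBB2 cells (6 of 139) and 2.67% of Control cells (4 of 150). In both genotypes *Rbp7* was therefore mostly found in cells with *Fgfr3*. The number of genes detected also differed between these cells, with medians of 11641 and 2954 in CA-ERBB2 cells and 9507 and 2796 in Control cells, and its part in the difference was not tested. Without wells A12 to D12 *Rbp7* was detected in 48.4% (15 of 31) and 35.0% (7 of 20) of the cells with *Fgfr3* of CA-ERBB2 and Control. After thinning to 100000 counts the shares were 34.2% and 2.19% in CA-ERBB2 cells and 33.3% and 2.56% in Control cells.

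Within the cells with *Fgfr3* the highest *Rbp7* levels were in CA-ERBB2 cells, while the intervals of the shares at 100 CPM overlapped. *Rbp7* was at 100 CPM or more in 4 of 22, 2 of 10 and 2 of 6 such cells of the 3 CA-ERBB2 plates, 21.1% in all (8 of 38, interval 9.55 to 37.3%). In Control it was so in 0 of 10, 0 of 5 and 1 of 12 cells, 3.70% in all (1 of 27, interval 0.0937 to 18.97%). Of the 20 CA-ERBB2 cells with *Fgfr3* and an *Rbp7* count, 8 lay above the highest such Control cell, which was at 148 CPM. The other 12 lay within the range of Control, and the medians were 28.7 CPM in CA-ERBB2 and 20.5 CPM in Control, or 30.8 and 42.5 CPM without wells A12 to D12. When SCs were instead defined as cells with at least 5 of the 10 SC markers at 100 CPM, the shares at 100 CPM were 25% (7 of 28) and 3.85% (1 of 26).

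**Figure D3:**
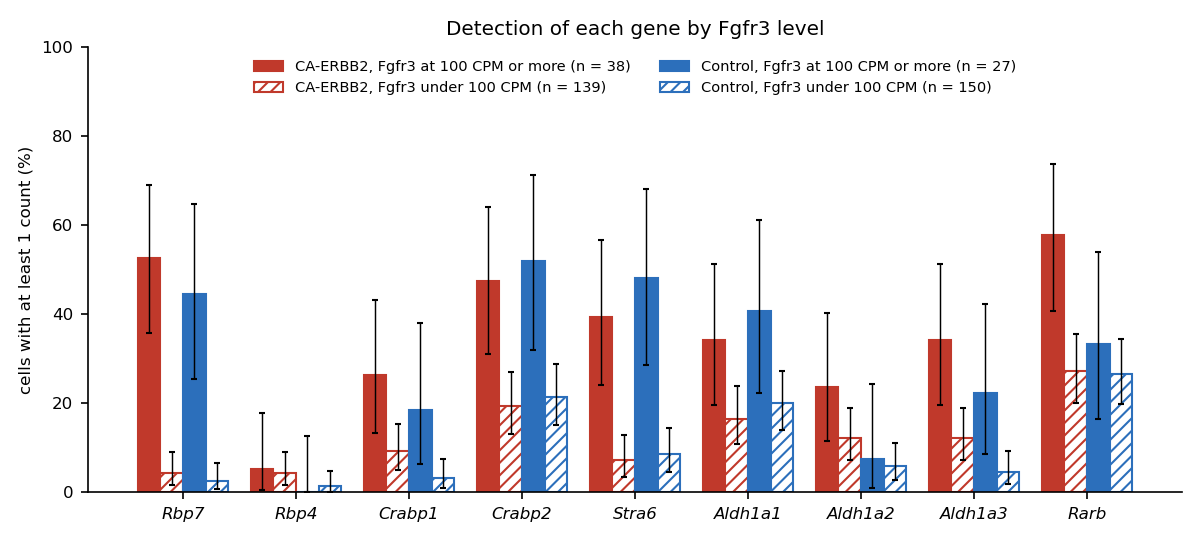
Share of cells with at least 1 count of each gene, in percent, in CA-ERBB2 (red) and Control (blue) cells with *Fgfr3* at 100 CPM or more (filled bars) and under it (hatched bars), with 95% exact binomial intervals. With all wells included, the share is higher above 100 CPM of *Fgfr3* for all genes but *Rbp4* in Control cells. For *Rbp7* and *Stra6* it lies at or below 8.67% under that level and at or above 39.5% over it.

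The genes whose level across cells was most like that of *Rbp7* were sought across the CA-ERBB2 cells, by Pearson's correlation of log2(CPM + 1) centred by plate, among the 15640 genes detected in at least 18 of these cells. These cells share plates and differ in the number of genes detected, and the values describe them without a test. The closest was *S100a3*, which encodes a calcium-binding protein of hair cuticle, with r = 0.87. Within plates 1, 2 and 3 it was 0.81, 0.97 and 0.95, and without wells A12 to D12 it was 0.89. *S100a3* had a count in each of the 10 Rbp7-high cells, from 10.9 to 267 CPM, with a median of 196 CPM. It reached 100 CPM in 3 of the other 167 CA-ERBB2 cells and in 1 Control cell.

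Next came *Fxyd3* (r = 0.74), which encodes a regulator of the sodium pump, and *Lgi4* (r = 0.72). *Fxyd3* and *Lgi4* overlap on opposite strands over 2059 exonic bases, so reads of the pair may not be told apart. *Fxyd3* ranged from 37.1 to 6448 CPM in the Rbp7-high cells. The others were *S100a14* (0.72), *Gm13782* (0.71), the vesicle gene *Rab3b* (0.71), *C130071C03Rik* (0.70), *Gm27151* (0.67), *Lad1* (0.66), which encodes a protein of the basement membrane zone, and the aquaporin gene *Aqp11* (0.66). *S100a3* was detected in 5 and *S100a14* in 2 Control cells, too few for a correlation there. Across Control cells r was 0.05 for both *Fxyd3* and *Lgi4*. For the rest of the 10 it lay between 0.28 (*Gm27151*) and 0.49 (*Lad1*).

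None of the other 8 members was among these genes. The closest was *Stra6*, with r = 0.19 and the place 4753, and *Aldh1a1* followed at 0.08. The values for *Aldh1a2*, *Rarb*, *Crabp1*, *Crabp2* and *Aldh1a3* lay between -0.08 and 0.00, and *Rbp4* was detected in too few cells. *Fgfr3* was at 0.51. The osteopontin network genes *Spp1*, *Timp1*, *Mmp9* and *Dmp1* lay between -0.10 and -0.03.

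**Figure D4:**
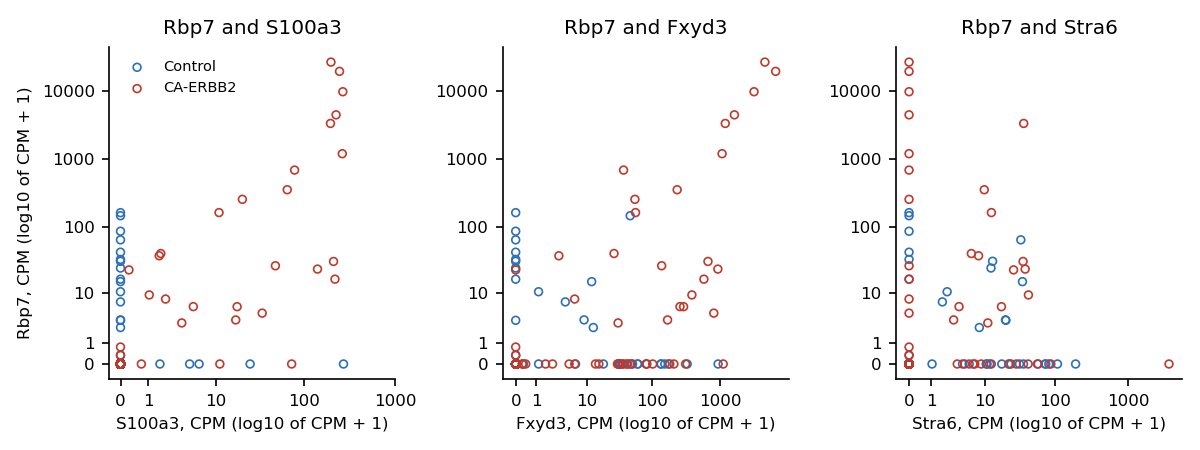
Level of *Rbp7* in each cell against those of *S100a3*, *Fxyd3* and *Stra6*, all in CPM of the cell on a log10 scale after adding 1, for CA-ERBB2 (red) and Control (blue) cells. The CA-ERBB2 cells with most *Rbp7* also hold *S100a3* and *Fxyd3*, whereas *Stra6* is at 0 in 7 of the 10 cells above 100 CPM. Among these 10 cells *S100a3* does not rise steadily with *Rbp7*. It is at 197 CPM in the cell with *Rbp7* at 26643 CPM and at 263 CPM in one with *Rbp7* at 1209 CPM.

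The other 8 members showed no difference between genotypes that exceeded the spread between plates. In edgeR's quasi-likelihood test on plate sums, 0 of the 8 passed an adjusted p of 0.05 with a log2 fold change beyond 1, 0 had an unadjusted p under 0.05 (all genes: 2.77% higher and 2.39% lower in CA-ERBB2), and DESeq2, which called 1.25% of the 18827 genes with an adjusted p, called 0 of the 6 members for which it gave one. Over all genes tested, the same rule called 1 gene, or 0.00467%. That gene was *Serpinb2*, a serpin gene that is not part of the pathway and is named here after its value was seen. Neither *Spp1* (log2 fold change 7.24, edgeR adjusted p = 0.563) nor *Erbb2* (2.94, edgeR adjusted p = 0.774) was called. A gene that is not called may therefore still differ between the genotypes. The log2 fold change was above 0 for 3 and below 0 for 5 of the 8, with a median of -0.40, against -0.02 over all genes tested. The plates of the genotypes overlapped for all 8, while they did not overlap for 9.09% of all genes tested, of which those with every CA-ERBB2 plate below every Control plate were 4.88%.

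Among the genes of retinol transport, *Rbp4* (chr19:38116629-38125281) was nearly absent. It was at 3.23, 2.82 and 1.04 CPM on CA-ERBB2 plates 1, 2 and 3 and at 9.71, 0 and 0 CPM on Control plates 1, 2 and 3. Its counts came from 8 CA-ERBB2 cells and 2 Control cells, and 1 Control cell held 95.1% of the Control counts. The log2 fold change was -0.46 (SE 2.26, edgeR adjusted p = 0.989).

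*Stra6* (chr9:58063788-58153996), the receptor gene for RBP4, was at 5.97, 0.485 and 57.2 CPM on the CA-ERBB2 plates and at 4.52, 3.61 and 13.7 CPM on the Control plates. CA-ERBB2 plate 3 was the highest and CA-ERBB2 plate 2 the lowest, so the genotypes overlapped. A single cell, E1 of plate 3 at 3638 CPM, held 75.5% of the CA-ERBB2 counts. The log2 fold change was 1.55 (SE 1.34, edgeR adjusted p = 0.933), and -1.18 without CA-ERBB2 plate 3. *Stra6* was detected in 25 CA-ERBB2 and 26 Control cells. With all wells and before thinning, it was found more often with *Fgfr3*, in cells with more genes detected. The same held for *Rbp7*, *Crabp1*, *Crabp2*, *Aldh1a1*, *Aldh1a2*, *Aldh1a3* and *Rarb* in both genotypes. Without wells A12 to D12 the order turned for *Aldh1a2* in both genotypes and for *Crabp1* and *Rarb* in Control cells. *Rarb* was then found in 2 of 20 Control cells with *Fgfr3* and in 36 of 145 others. After thinning, the order turned for *Aldh1a2* in Control cells (3.70% and 6.84%), where *Rarb* was nearly equal (29.6% and 29.9%). *Stra6* had a count in 39.5% of CA-ERBB2 cells and 48.1% of Control cells with *Fgfr3* at 100 CPM, and in 7.19% and 8.67% of the others. In the thinned cells these shares were 31.6% and 37.0%, and 5.11% and 10.3%.

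Of the genes for cytoplasmic binding of retinoic acid, *Crabp1* (chr9:54764748-54773110) was found mainly on the plates numbered 1. It was at 16.2, 0.101 and 0.288 CPM on the CA-ERBB2 plates and at 15.8, 7.01 and 5.94 CPM on the Control plates. The log2 fold change was -0.79 (SE 1.57, edgeR adjusted p = 0.974). It was -5.63 without CA-ERBB2 plate 1 (unadjusted p = 0.00696, edgeR adjusted p = 0.562), and between -0.24 and -0.22 without CA-ERBB2 plate 2 or 3 or Control plate 1. Detection was in 19, 2 and 2 cells of the CA-ERBB2 plates and 6, 2 and 2 cells of the Control plates. Wells A12 to D12 held 7 of the 23 CA-ERBB2 and 7 of the 10 Control cells with a count. Without them the level, in CPM of the plate sum without scaling factors, was 11.6, 0.00784 and 0 on the CA-ERBB2 plates and 19.1, 0 and 0 on the Control plates, and the gene did not pass the filter.

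*Crabp2* (chr3:87948666-87953376) had the smallest p of the 8. It was at 53.0, 49.8 and 277 CPM on the CA-ERBB2 plates and at 77.8, 10.6 and 20.99 CPM on the Control plates, with Control plate 1 above CA-ERBB2 plates 1 and 2. The log2 fold change was 1.80 (SE 0.89, unadjusted p = 0.0712, edgeR adjusted p = 0.911). It was 0.52 without CA-ERBB2 plate 3 and 3.00 without Control plate 1 (edgeR adjusted p = 0.737). Before thinning, the number of cells hardly differed, with detection in 45 CA-ERBB2 and 46 Control cells and 100 CPM or more in 18 of either genotype. After thinning, with shallower cells left out, *Crabp2* was detected in 18.9% of CA-ERBB2 cells (33 of 175) and 27.8% of Control cells (40 of 144). The thinned shares of the plates overlapped between genotypes. CA-ERBB2 plate 3 held 3 cells at 1000 CPM or more, of which D7 was the highest at 3808 CPM.

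**Figure D5:**
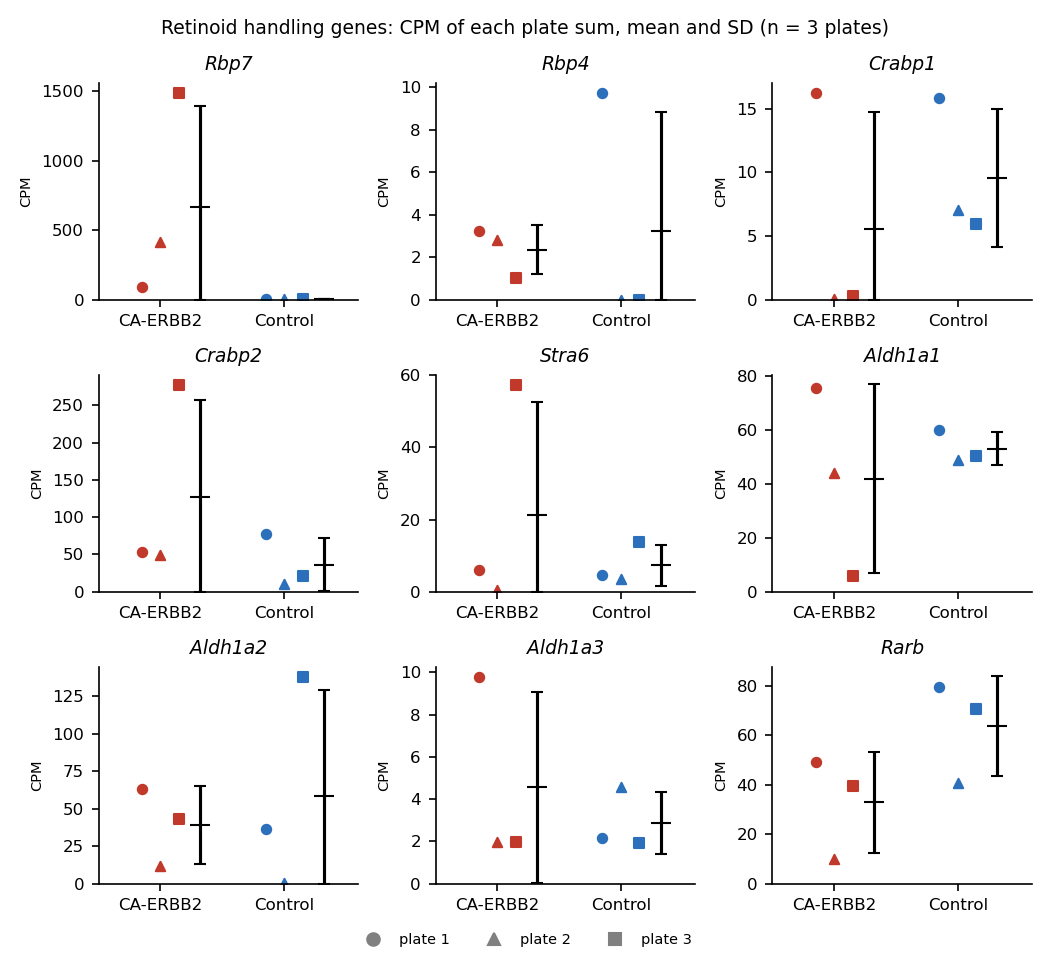
Level of the 9 retinoid genes on each of the 6 plates, in CPM of the plate sum on linear axes that start at 0 and differ between genes, with circles, triangles and squares for plates 1, 2 and 3 and black bars for the mean ± SD of 3 plates (cut at 0). *Rbp7* is the only panel in which the genotypes do not overlap.

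Of the 3 genes for enzymes that make retinoic acid, none passed the test. *Aldh1a1* (chr19:20492715-20643465) was at 75.6, 44.1 and 5.79 CPM on the CA-ERBB2 plates and at 60.0, 48.8 and 50.3 CPM on the Control plates. The Control plates lay within the range of the CA-ERBB2 plates, and the log2 fold change was -0.34 (SE 0.78, edgeR adjusted p = 0.977), or 0.18 without CA-ERBB2 plate 3. It reached 100 CPM in 5, 5 and 0 cells of the CA-ERBB2 plates and in 11, 5 and 6 cells of the Control plates. *Aldh1a7*, a near copy on the same chromosome, can share its reads, and had 82 counts in CA-ERBB2 and 2886 in Control cells.

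*Aldh1a2* (chr9:71215789-71296243) was at 63.0, 11.6 and 43.4 CPM on the CA-ERBB2 plates and at 36.6, 0.403 and 138 CPM on the Control plates. The highest and the lowest plate were both Control. Single cells held 59.8% of its CA-ERBB2 counts and 63.8% of its Control counts, and the log2 fold change of -0.57 (SE 1.28, edgeR adjusted p = 0.976) was 1.11 without Control plate 3. *Aldh1a3* (chr7:66390890-66427517) was at 9.78, 1.96 and 1.95 CPM on the CA-ERBB2 plates and at 2.15, 4.56 and 1.93 CPM on the Control plates. Its log2 fold change was 0.66 (SE 1.23, edgeR adjusted p = 0.973), and -0.57 without CA-ERBB2 plate 1, which held 21 of the 30 CA-ERBB2 cells with a count.

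*Rarb*, the receptor gene induced by retinoic acid, was at 49.2, 9.84 and 39.6 CPM on the CA-ERBB2 plates and at 79.7, 40.9 and 70.8 CPM on the Control plates. CA-ERBB2 plate 1 lay above Control plate 2, so the plates overlapped, and the log2 fold change was -0.96 (SE 0.67, edgeR adjusted p = 0.918). *Rarb* was detected in 60 CA-ERBB2 and 49 Control cells, more than any other of the 9. These counts are uncertain, since *Rarb* overlaps *Top2b*, a widely expressed topoisomerase gene, on the opposite strand over 1793 exonic bases. The authors counted by strand, and the sources used here do not say whether the kit marks it. *Rarb* was detected in 66.2% of CA-ERBB2 cells (49 of 74) and 57.5% of Control cells (42 of 73) with *Top2b* at 100 CPM or more, and in 10.7% (11 of 103) and 6.73% (7 of 104) of the others. The part of *Top2b* in the *Rarb* counts was not tested.

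Scaled by exonic length, *Rbp7* had place 1 in CA-ERBB2 and place 6 in Control, and the order among some of the other genes also differed. In Control cells the level per kb was 27.6 CPM for *Crabp2*, 25.8 for *Aldh1a2*, 12.1 for *Rarb*, 11.9 for *Crabp1*, 10.7 for *Aldh1a1*, 6.92 for *Rbp7*, 2.41 for *Rbp4*, 1.25 for *Stra6* and 0.624 for *Aldh1a3*. Of these 8 steps, only those from *Aldh1a1* to *Rbp7* and from *Rbp7* to *Rbp4* were larger than the SD over plates of both neighbours. In CA-ERBB2 cells *Rbp7* was first at 928 CPM per kb, followed by *Crabp2* at 95.8 and *Aldh1a2* at 17.4. Then came *Aldh1a1* at 8.47, *Crabp1* at 6.89, *Rarb* at 6.24, *Stra6* at 3.64, *Rbp4* at 1.76 and *Aldh1a3* at 0.988. No step between neighbours exceeded the SD of both, and this includes the step from *Rbp7* to *Crabp2*.

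High *Rbp7* did not come with other members at a comparable level. Another member reached 100 CPM in 1 of the 10 Rbp7-high CA-ERBB2 cells (interval 0.253 to 44.5%), in 44 of the other 167 (26.3%, interval 19.8 to 33.7%), and in 55 Control cells (31.1%). The intervals of the CA-ERBB2 shares overlapped, and a median of 11805 genes was detected in the Rbp7-high cells and 3344 in the other CA-ERBB2 cells. The single cell was B12 of plate 3, with *Rarb* at 227 CPM, and without wells A12 to D12 it was 0 of 8 cells against 25.5% of the others. By plate, it was 0 of 4, 0 of 2 and 1 of 4 Rbp7-high cells. In the 8 cells outside those wells, no member other than *Rbp7* exceeded the 56.7 CPM of *Aldh1a1* in E9 of plate 1.

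At the level of a single count the direction turned. A median of 12331 genes was detected in the CA-ERBB2 cells with an *Rbp7* count and 3161 in those without, and the part of this in the shares was not tested. At least 1 other member was detected in 20 of the 26 CA-ERBB2 cells with *Rbp7* (76.9%) and in 53.6% of the 151 without. Without wells A12 to D12 these shares were 68.4% and 52.1%. Among cells with *Fgfr3* at 100 CPM or more they were 85.0% (17 of 20) and 77.8% (14 of 18), and 80.0% and 75.0% without those wells. The members most often detected with *Rbp7* in the 26 cells were *Rarb* in 17, *Stra6* in 13, and *Crabp2* and *Aldh1a1* in 12 each, which are 28.3%, 52.0%, 26.7% and 33.3% of the CA-ERBB2 cells with a count of each. In the 16 Control cells with *Rbp7*, *Crabp2* was detected in 10, *Stra6* in 9, and *Aldh1a1* and *Rarb* in 7 each.

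Of a list of 59 further genes of the pathway, 40 passed the filter on low counts, 0 were called by edgeR, and 2 had an unadjusted p under 0.05, both lower in CA-ERBB2, while 5.16% of all genes tested had one. DESeq2 called 1 of 38, *Aldh1a7*, where it called 1.25% of all genes. The log2 fold change was above 0 for 21 and below 0 for 19, with a median of 0.03. By group, it was above 0 for 4 of 5 genes of uptake and esters, 8 of 15 genes of retinol and retinal enzymes, 0 of 1 gene of retinoic acid breakdown, 1 of 5 receptors, 3 of 3 related lipid binders, 3 of 5 genes known to be induced by retinoic acid and 1 of 4 genes tied to PPARG.

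The 2 genes with an unadjusted p under 0.05 were *Aldh1a7*, with a log2 fold change of -5.26 (SE 2.12, unadjusted p = 0.0314, edgeR adjusted p = 0.911), and *Rarres2*, which encodes the secreted protein chemerin. *Rarres2* was at 22.3, 5.02 and 4.27 CPM on the CA-ERBB2 plates and 22.6, 92.8 and 18.7 CPM on the Control plates (log2 fold change -2.08, SE 0.92, unadjusted p = 0.0461, edgeR adjusted p = 0.911). These plates overlapped for both genes. The next in this direction were *Nrip1* (-0.88) and *Rdh12* (-2.04). Those with the smallest p in the other direction were *Hoxb1* (4.56, SE 2.52), *Rdh10* (1.15), *Rdh13* (1.83) and *Stra6l* (2.28). None of these genes was called. A single cell held 85.4% of the CA-ERBB2 counts of *Hoxb1*, 66.2% of those of *Rdh13* and 73.4% of those of *Stra6l*, against 9.64% for *Rdh10*.

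The plates did not overlap for 3 of the 40 genes, a share below that of all genes tested. *Rdh10*, which encodes the dehydrogenase that oxidizes retinol to retinal in the embryo, was at 48.8, 26.8 and 28.6 CPM on the CA-ERBB2 plates and at 24.0, 8.58 and 14.4 CPM on the Control plates. *Rara*, a retinoic acid receptor gene, was at 16.2, 6.65 and 11.3 CPM on the CA-ERBB2 plates and at 16.8, 21.3 and 30.2 CPM on the Control plates. *Nrip1*, which encodes a corepressor of nuclear receptors, was at 60.0, 31.0 and 29.3 CPM on the CA-ERBB2 plates and at 66.6, 80.2 and 74.6 CPM on the Control plates. Their adjusted p were 0.913, 0.918 and 0.918 in the edgeR test.

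The genes of the list with a mean of 100 CPM or more over the 6 plates included the alcohol dehydrogenase gene *Adh5* and *Fabp7*, which encodes a fatty acid-binding protein of glia. *Adh5* was at 277 ± 114 CPM in CA-ERBB2 and 219 ± 116 CPM in Control (SD, n = 3 plates), and *Fabp7* was at 1336 ± 1248 and 896 ± 936 CPM, both within the spread of plates. *Cyp26b1*, which breaks down retinoic acid, was at 106, 50.8 and 30.1 CPM on the CA-ERBB2 plates and 138, 13.9 and 154 CPM on the Control plates. It was detected in 9 of the 10 Rbp7-high cells and in 36 of the other 167 CA-ERBB2 cells. A median of 11805 genes was detected in the former and 3344 in the latter, and the part of this was not tested. *Fabp3* and *Rara* were also detected in 9 of the 10, and in 43 and 59 of the other 167. *Pparg* was detected in 4 CA-ERBB2 and 5 Control cells, and in none of the 10 Rbp7-high cells.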

How the data were processed

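Single cells of 177 CA-ERBB2 and 177 Control wells had been sequenced with SMART-Seq Single PLUS. Per the methods and the submitters' processing notes, the authors demultiplexed reads with bcl2fastq 2.19.1, trimmed them with fastp, mapped them to GRCm38 with STAR 2.7.6a and Gencode annotation, counted them by strand over exons with featureCounts (Subread 2.0.1), and used Seurat 4.0.4. The deposited values are raw counts per gene and cell for 55367 genes, without molecular identifiers or normalization. Totals per cell ranged from 1443 to 5178221 counts, and sums per plate from 108357282 to 188636940, so depth limits the genes counted in few cells.

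Here the cells of a plate were added up, and the 6 sums were compared by the quasi-likelihood test of edgeR 4.0.16 (R 4.3.3, TMM factors, filterByExpr, 3 plates against 3, Benjamini-Hochberg adjustment over 21416 genes). A gene was called where the adjusted p was below 0.05 and the log2 fold change exceeded 1 in size. Cell levels are CPM of the cell's own total, and detection is at least 1 count. Cells were thinned to 100000 counts for shares at matched depth. Coordinates come from Gencode M21, also on GRCm38, which held 84 of the 84 gene names looked up. The members, the lists, the marker genes and the tests were chosen with earlier results of these data known. Named were the 9 members, pathway genes that were called, had the 4 smallest p in each direction or a mean of at least 100 CPM, and the 10 genes most like *Rbp7*. *Rara*, *Cyp26b1* and *Pparg*, and splits by *Fgfr3* or by SC markers, were chosen after their values were seen. Alternatives were DESeq2 1.42.0, relative log expression factors, no filter, a plate block, filters on cells and wells, limma 3.58.1 on cell means, other levels and each plate left out. The edgeR step was tested on simulated data. No doublet caller was run on the sorted cells. 1 gene of the pathway list is not reported here.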

Additional observations from a re-analysis of the deposited data

How the results depend on the processing

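The difference of *Rbp7* between genotypes kept its direction under all 13 alternatives, with a log2 fold change from 5.71 (without CA-ERBB2 plate 3) to 7.57 (without CA-ERBB2 plate 1) in the count fits. It was 0.54 in limma with every cell weighted equally, where most cells are at 0. Of 21416 genes 1 was called, and 0 to 2 were when each plate was left out (0 without Control plate 1 or 3, 2 without CA-ERBB2 plate 1), against 235 with DESeq2, 285 without a filter on low counts and 0 with limma, which had 188 genes at an unadjusted p under 0.05. The median log2 fold change over all genes stayed between -0.17 and 0.13. The cause was not tested.

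None of the other 8 members was called under any alternative that gave a value, with adjusted p from 0.381 upward. Of their 103 values under alternatives, 91 kept the sign and 12 changed it. With each plate left out, *Crabp1* ranged from -5.63 to -0.22, *Crabp2* from 0.52 to 3.00, *Rbp4* from -1.05 to 11.3 (without Control plate 1, where Control has no count, so the value depends on the prior count), *Stra6* from -1.18 (without CA-ERBB2 plate 3) to 2.41, *Aldh1a1* from -1.10 to 0.18 (without CA-ERBB2 plate 3), *Aldh1a2* from -1.16 to 1.11 (without Control plate 3) and *Aldh1a3* from -0.57 (without CA-ERBB2 plate 1) to 1.15. With every cell weighted equally these were *Rbp4* (0.11), *Crabp1* (0.25), *Stra6* (-0.027) and *Aldh1a2* (0.27).

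The labels do not say whether plates that share a number were sorted together. The correlations of their deviations were 0.246, 0.0624 and 0.0393 for plates 1, 2 and 3, not all above 0.1, and both plates 1 had more genes per cell (medians 10198 and 8679) than the others (1742 to 2954). With the plate number as a replicate block 1 gene was called, *Rbp7* was at 6.51, *Crabp1* at -3.74, and *Rbp4* (7.12), *Stra6* (-0.0078) and *Aldh1a2* (1.10) changed sign.

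The share of Rbp7-high cells was 4.52 percentage points higher in CA-ERBB2, from 3.95 to 5.65 points with each plate left out, and 3.39 points at 10 CPM, 3.39 at 1000 CPM and 5.65 at 1 count. Among alternatives added after seeing the data, it was 17.3 points in cells with *Fgfr3* at 100 CPM, 21.2 points in cells with 5 SC markers, and, at 1 count, 8.19 points in cells with *Fgfr3* or 13.4 points without wells A12 to D12.

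Another member at 100 CPM was 16.3 percentage points less frequent in Rbp7-high cells (-16.3), from -28.6 without CA-ERBB2 plate 3 to -3.87 without CA-ERBB2 plate 1. With a lower level for both genes the difference turned positive, to 20.6 points at 10 CPM and 23.3 at 1 count. At 1 count it was 16.4 points without wells A12 to D12, 22.8 after thinning, 7.22 in cells with *Fgfr3* and 5.0 in those outside wells A12 to D12, all added after seeing the data. With 10 Rbp7-high cells on 3 plates, shares in them carry wide intervals.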
